A study of Mus musculus with 27 samples.

Results

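The interaction of bryostatin with interferon-gamma (IFN-gamma) was measured in lipopolysaccharide-treated mixed glia, in 12 of the 27 RNA-seq libraries of the study. The cells were glia from the cortex of C57BL/6 mice of postnatal days 3 to 6, grown for 14 days in vitro and treated for 24 h. All 12 libraries had received lipopolysaccharide (LPS) at 100 ng/mL, so no value below compares cells with and without LPS. The 4 groups of 3 libraries were LPS, LPS with bryostatin (50 nM), LPS with IFN-gamma (20 ng/mL), and LPS with both IFN-gamma and bryostatin. These libraries were chosen by their labels alone, and all 15693 genes with enough counts, of 54532 in the count table, were tested. The labels do not say whether the 3 libraries of a group came from separate cultures, so the p-values cover variation among libraries alone, part or all of which could be technical.

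Bryostatin is a macrolide from a marine bryozoan symbiont that binds the C1 domains of protein kinase C and related proteins, the site at which diacylglycerol acts. It first activates protein kinase C and, with longer exposure, lowers the amount of several isoforms. LPS acts through Toll-like receptor 4 and turns on NF-kB and interferon regulatory factors in microglia and astrocytes. IFN-gamma acts through its receptor and the JAK-STAT pathway, and raises antigen presentation genes, guanylate-binding proteins and CXCR3 chemokines.

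For each gene, the interaction was the log2 fold change with bryostatin in the presence of IFN-gamma minus the log2 fold change with bryostatin in its absence. A positive value thus means that the bryostatin group stood higher, relative to its own control, when IFN-gamma was present, either because a decrease was smaller or because an increase was larger. The same number is also the fold change with IFN-gamma in the presence of bryostatin minus that in its absence. Levels are CPM, counts relative to library size after scaling by the trimmed mean of M-values (TMM), values after ± are SDs over the 3 libraries of a group unless named SE, and adjusted p-values are from edgeR's quasi-likelihood F-test with Benjamini-Hochberg adjustment over all genes tested. Genes with an adjusted p under 0.05 are called.

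The libraries held 17230058 to 20002626 counts each, and replicates differed by more than counting noise in every group. The first principal component, with 61.6% of the variance, separated the libraries with IFN-gamma from those without, and the second, with 12.2%, separated those with bryostatin from those without. On the third, with 6.29%, replicate 1 of LPS with bryostatin, replicate 1 of LPS with IFN-gamma and replicate 3 of the group with both stood apart from the other libraries of their groups. The summed level of 26 astrocyte identity genes had a median of 19200 CPM with LPS, 15200 CPM with bryostatin added, 14800 CPM with IFN-gamma added and 11800 CPM with both. The summed level of 20 microglial and macrophage lineage markers was 3510 to 4090 CPM with LPS, 2730 to 2960 CPM with bryostatin, 2600 to 2750 CPM with IFN-gamma and 2110 to 2590 CPM with both. In such bulk samples, fewer cells of a type and less RNA per cell cannot be told apart. The oligodendrocyte list summed to 918 to 941, 798 to 838, 573 to 651 and 566 to 586 CPM in the same order, and its transcription factor Sox10 had means of 32.3, 8.87, 17.3 and 7.94 CPM. Markers of cells other than glia were also present. Fibroblast, pericyte and smooth muscle markers, 16 in all, summed to 5330 to 6320, 4150 to 5720, 3260 to 5340 and 3640 to 4220 CPM in that order. The collagen gene Col1a1 among the fibroblast markers had means of 1490, 1300, 990 and 1070 CPM. The T cell gene Cd3e and the neutrophil gene Ly6g had no count in any of the 12 libraries, and 14 lymphocyte and granulocyte markers together reached at most 1.25 CPM. The astrocyte identity and microglial lineage sums were lower with either agent, with no overlap with or without the other. The oligodendrocyte sums overlapped between bryostatin and control when IFN-gamma was present. Sums of homeostatic and of disease-associated microglial genes overlapped between bryostatin and control in both settings, and the disease-associated sum was higher with IFN-gamma. The part of these sums in the results below was not tested.

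Bryostatin acted differently with and without IFN-gamma on a small set of genes. These included 36 of the 905 genes that IFN-gamma itself raised over 2-fold on average (3.98%) and 19 of the 1090 it lowered over 2-fold (1.74%). Of 15693 genes, 112 had a called interaction (0.714%), of which 71 were positive (0.452%) and 41 negative (0.261%). The median size of the 112 was 0.754 on the log2 scale, and 39 exceeded 2-fold, 28 positive and 11 negative. At an unadjusted p under 0.05 there were 1507 genes, where 785 would be expected if no gene interacted. For comparison, bryostatin changed 2026 genes without IFN-gamma (12.9%; 5.37% raised, 7.54% lowered) and 1274 with it (8.12%; 4.25% raised, 3.87% lowered), and IFN-gamma changed 6804 genes without bryostatin (43.4%; 21% raised, 22.4% lowered) and 6919 with it (44.1%; 22.7% raised, 21.4% lowered). The effects of bryostatin in the 2 settings, which share no library, had a Pearson r of 0.502 and a Spearman rho of 0.456 across all 15693 genes, which are not independent replicates.

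The largest pattern among the 71 positive genes was a decrease with bryostatin that was called only in the absence of IFN-gamma, seen in 37. Another 14 were lowered in both settings, 14 were raised by bryostatin in the presence of IFN-gamma and not called in its absence, 5 went from lowered to raised, and 1 was raised in both. Among the 41 negative genes, 13 were raised by bryostatin without IFN-gamma and not called with it, 10 were raised in both settings, 7 went from raised to lowered, 8 were lowered with IFN-gamma and not called without it, and 3 were lowered in both.

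**Figure D1:**
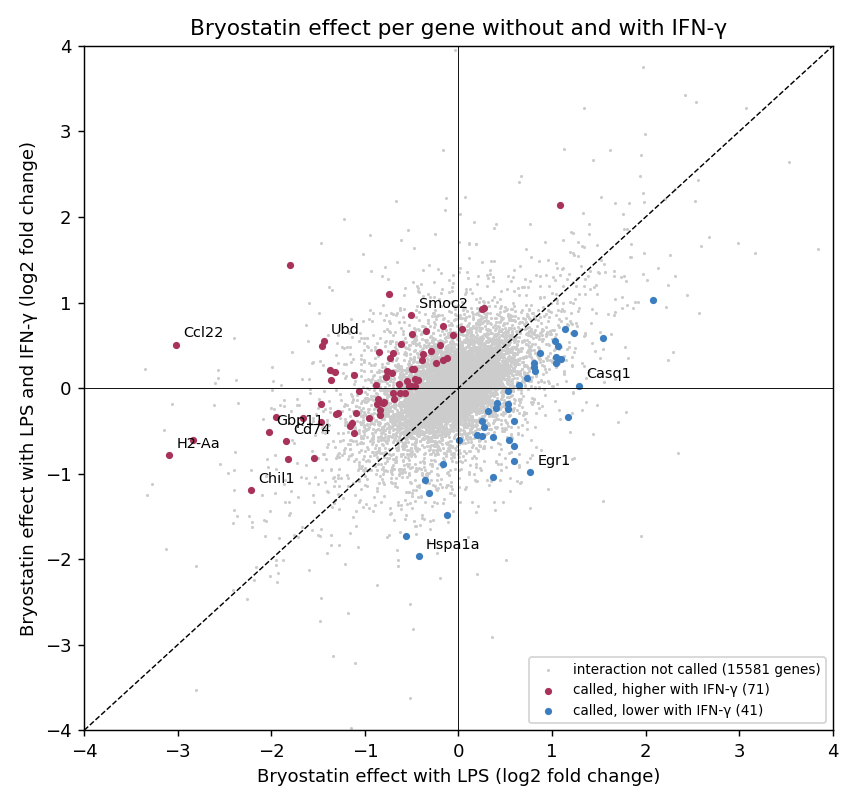
Each point is 1 gene, placed by its log2 fold change with bryostatin under LPS (x axis) and under LPS with IFN-gamma (y axis), with genes of called interaction coloured by direction. The 71 positive genes lie above the diagonal of equal effects and the 41 negative genes below it.

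The count depended on which libraries entered the fit. All 112 genes kept their direction in every alternative in which they were tested (108 of them under a filter at 5 CPM, all 112 in the others), but 87 lost their call without at least 1 of the 12 libraries, each left out in turn. Leaving out LPS replicate 1, 2 or 3 left 33, 34 and 38 called genes, and leaving out LPS with IFN-gamma replicate 1 gave 156. A fit that added the 3 untreated libraries of the same experiment, and so took the spread from 15 libraries, called 19 genes, all among the 112. There were 25 genes called without each of the 12 libraries in turn, 19 positive and 6 negative. Of these, 16 were also called by DESeq2, by limma-voom, with DESeq2 size factors, with a replicate term and in the 15-library fit. Ccl22, Ubd, H2-Aa, Cd74, C1s1, Egr1, Hspa1a and Hspa1b were among the genes called both without each library in turn and in the 15-library fit, whereas Gbp5, Gbp6, Gbp10 and Casq1 were called without each library in turn but had adjusted p-values of 0.817, 0.262, 0.147 and 0.704 in the 15-library fit.

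The promoters of 76 of the 112 genes could be matched by symbol to RefSeq (GRCm38.p6), as the 250 bases before the annotated start, and short sequence matches were counted in them on both strands as a description. The STAT site TTCNNNGAA occurred in 11 of 49 positive genes (22.4%), 3 of 27 negative genes (11.1%) and 7.16% of the 11587 tested genes with a promoter. The interferon-stimulated response element (ISRE), the core that interferon regulatory factors bind, occurred in 8 positive genes (16.3%), 0 negative genes and 3.39% of all. The kB site, bound by NF-kB, occurred in 13 positive genes (26.5%), 3 negative genes (11.1%) and 5.84% of all. Among 595 genes that IFN-gamma raised over 2-fold on average and whose interaction was not called, the same shares were 9.08%, 7.06% and 8.57%. The AP-1 motif TGANTCA occurred in 3 positive genes (6.12%), 3 negative genes (11.1%), 5.93% of all and 11.6% of those 595. The CArG motif CCWWWWWWGG, where W is A or T, occurred in 0 positive genes, 1 negative gene (3.7%), 1.33% of all and 2.02% of those 595. The 4 promoters below belong to genes described in the next paragraphs, with the matches in capitals, in the sense of the gene and 5′ to 3′. That of Ubd (chr17:37193642-37193891, plus strand) has a kB match 15 to 6 bases before the start. That of Gbp5 (chr3:142496684-142496933, plus strand, before a RefSeq start 2956 bases inside the deposited gene's start) has 2 STAT matches, 1 interferon-stimulated response element and 1 kB match. That of Socs1 (chr16:10785537-10785786, minus strand) has 2 overlapping response elements 83 to 68 bases before the start. That of Hspa1a (chr17:34972157-34972406, minus strand) has the heat shock factor motif GAANNTTC 104 to 97 bases before the start, a motif in 6.14% of all promoters and 2 of the 27 negative genes (7.41%). The windows of Ccl22 and Cxcl9 hold none of the motifs searched in them, which says only that these letters are absent there.
Ubd: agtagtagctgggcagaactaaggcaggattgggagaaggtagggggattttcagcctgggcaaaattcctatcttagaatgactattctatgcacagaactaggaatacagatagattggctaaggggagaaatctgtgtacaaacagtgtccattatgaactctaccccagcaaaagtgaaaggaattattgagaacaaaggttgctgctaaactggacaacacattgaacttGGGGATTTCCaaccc
Gbp5: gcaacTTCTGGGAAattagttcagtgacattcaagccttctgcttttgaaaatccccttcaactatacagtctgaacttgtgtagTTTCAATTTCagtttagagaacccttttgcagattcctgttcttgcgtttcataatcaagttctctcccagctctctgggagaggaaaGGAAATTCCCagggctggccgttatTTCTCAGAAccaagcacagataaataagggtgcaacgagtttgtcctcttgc
Socs1: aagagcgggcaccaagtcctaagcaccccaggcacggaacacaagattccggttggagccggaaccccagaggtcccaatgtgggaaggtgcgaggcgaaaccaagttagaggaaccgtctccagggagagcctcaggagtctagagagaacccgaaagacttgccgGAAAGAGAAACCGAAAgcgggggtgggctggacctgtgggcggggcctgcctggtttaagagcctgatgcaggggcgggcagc
Hspa1a: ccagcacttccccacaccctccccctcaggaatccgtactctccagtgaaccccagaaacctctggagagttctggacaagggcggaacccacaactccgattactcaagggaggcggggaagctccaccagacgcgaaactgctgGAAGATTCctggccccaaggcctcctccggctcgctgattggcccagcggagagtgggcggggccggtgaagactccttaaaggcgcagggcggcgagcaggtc

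Among IFN-gamma targets, the guanylate-binding proteins and immunity-related GTPases, large GTPases that attack vacuoles of intracellular microbes, had the most called members. Of 19 tested members, 6 had a positive interaction, 0 a negative one and 18 a positive estimate, and the list's median was 0.57 against 0.0199 over all genes. Bryostatin lowered 13 of the 19 without IFN-gamma and 3 with it, and IFN-gamma raised all 19. In the fit without the 3 libraries that stood apart on the third component, the list's median was 0.33 with 7 called, and in the 15-library fit it was 0.54 with 1 called.

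Gbp5 (ENSMUSG00000105504, chr3:142493978-142522344, mm10), which promotes inflammasome assembly, had 581, 622 and 618 CPM with LPS, and 245, 304 and 304 CPM with bryostatin. With IFN-gamma it had 2593, 2785 and 3128 CPM, and 2323, 2268 and 2350 CPM with both agents. Bryostatin libraries were below their controls in both settings with no overlap, and fell by 1.09 on the log2 scale without IFN-gamma (SE 0.09) and by 0.29 with it (SE 0.09, adjusted p = 0.0498). The interaction was 0.80 (SE 0.12, adjusted p = 0.0055). Gbp10 fell from 110 ± 1.27 to 42.7 ± 6.94 CPM without IFN-gamma and had 1264 ± 222 and 1352 ± 184 CPM with it, an interaction of 1.46 (SE 0.19, adjusted p = 0.0023). Gbp6 fell from 338 ± 19.6 to 161 ± 18.9 CPM without IFN-gamma and had 1432 ± 126 and 1395 ± 75.5 CPM with it (1.03, SE 0.13). Gbp11, annotated as a polymorphic pseudogene, was lowered in both settings, from 26.9 ± 2.1 to 6.58 ± 2.18 CPM and from 361 ± 44.4 to 252 ± 13 CPM. Gbp6, Gbp10 and Gbp11 are near-identical neighbours on chromosome 5, so the division of reads among them is uncertain and they should be read as 1 locus. Gbp2, also used as a reactive astrocyte marker, had 1471 ± 84.4, 1058 ± 122, 8456 ± 196 and 9877 ± 642 CPM in the order LPS, bryostatin, IFN-gamma and both, with an interaction of 0.70 (SE 0.12, adjusted p = 0.013) that was lost without LPS replicate 2 (adjusted p = 0.0578).

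Ubd (ENSMUSG00000035186, chr17:37193892-37196095) encodes FAT10, a ubiquitin-like modifier that targets proteins for degradation. It had 5.23, 4.59 and 5.56 CPM with LPS and 1.09, 2.01 and 2.57 CPM with bryostatin. It had 201, 165 and 195 CPM with IFN-gamma and 233, 261 and 330 CPM with both agents. The bryostatin libraries were the lower ones without IFN-gamma and the higher ones with it, with no overlap in either setting. Its fold change with bryostatin was -1.44 (SE 0.25) without IFN-gamma and 0.55 (SE 0.14) with it, and the interaction was 1.99 (SE 0.29, adjusted p = 0.0054).

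Of 15 class II antigen presentation genes, bryostatin lowered 8 without IFN-gamma and 7 with it, and 2, H2-Aa and Cd74, had a called interaction, positive in both. Only 10 of the 15 had a positive estimate, with a median of 0.32 and a lowest estimate of -0.93. H2-Aa (ENSMUSG00000036594, chr17:34282744-34287827), the alpha chain of a class II molecule, had 5.12, 3.15 and 4.23 CPM with LPS and 0.259, 0.652 and 0.524 CPM with bryostatin. With IFN-gamma it had 182, 148 and 147 CPM, and 86.7, 93.3 and 98 CPM with both. Bryostatin libraries were lower in both settings without overlap, by 3.09 (SE 0.28) and 0.78 (SE 0.12) on the log2 scale, and the interaction was 2.31 (SE 0.31, adjusted p = 0.0022). Cd74 (ENSMUSG00000024610, chr18:60803848-60812646), the invariant chain that guides class II molecules to the endosome, went from 36.2 ± 2.79 to 10.1 ± 1.09 CPM without IFN-gamma and from 681 ± 111 to 444 ± 39.7 CPM with it, an interaction of 1.23 (SE 0.16, adjusted p = 0.0021). H2-Eb1 and H2-Ab1, the beta chains, chosen here after their values were seen, had estimates of 1.46 and 0.72 that were not called (adjusted p = 0.071 and 0.103). Ciita, the class II transactivator, had 2.41 ± 0.448, 1.61 ± 0.383, 67.5 ± 6.25 and 56.3 ± 5.3 CPM in the 4 groups, with an interaction of 0.32 that was not called (SE 0.23, adjusted p = 0.77). The summed lineage markers of microglia and macrophages, a source of class II transcripts, were also lower with bryostatin in both settings. The sums of homeostatic microglial genes overlapped between bryostatin and control in both, at 4030 to 4580 and 4560 to 4820 CPM with IFN-gamma. The part of cell numbers in the class II values was not tested. All 22 class I antigen presentation genes had a positive estimate, with a median of 0.22. Bryostatin lowered 16 of them without IFN-gamma and 7 with it, but only H2-Q7 had a called interaction (0.59, SE 0.12, adjusted p = 0.028), and it has near-identical neighbours that make its count uncertain.

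The JAK-STAT feedback gene Socs1 and the transcription factor gene Irf1 were the 2 called members among 19 genes of IFN-gamma receptor and JAK-STAT signalling. Socs1, which blocks JAK kinases, had 20.9, 23.2 and 20.9 CPM with LPS and 16.8, 16.7 and 16.1 CPM with bryostatin. It had 253, 195 and 199 CPM with IFN-gamma and 260, 273 and 278 CPM with both. Bryostatin libraries were lower without IFN-gamma and higher with it, with no overlap, and the interaction was 0.72 (SE 0.13, adjusted p = 0.021). Irf1, itself induced by interferons, had 110 ± 6 and 71.3 ± 5.55 CPM without IFN-gamma and 1276 ± 83.3 and 1223 ± 111 CPM with it (interaction 0.57, SE 0.12, adjusted p = 0.034). The calls of Socs1 and Irf1 were lost without 9 and 10 of the 12 libraries in turn. The receptor genes Ifngr1 and Ifngr2 had interactions of 0.19 and 0.10 that were not called, each with an SE of 0.10. Il12rb1, a receptor chain for interleukins 12 and 23, fell from 1.28 ± 0.245 to 0.324 ± 0.121 CPM without IFN-gamma and had 30.2 ± 3.57 and 23.8 ± 2.31 CPM with it (1.61, SE 0.34, adjusted p = 0.04). Its call was lost without 9 of the 12 libraries in turn and with limma-voom (adjusted p = 0.169).

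**Figure D2:**
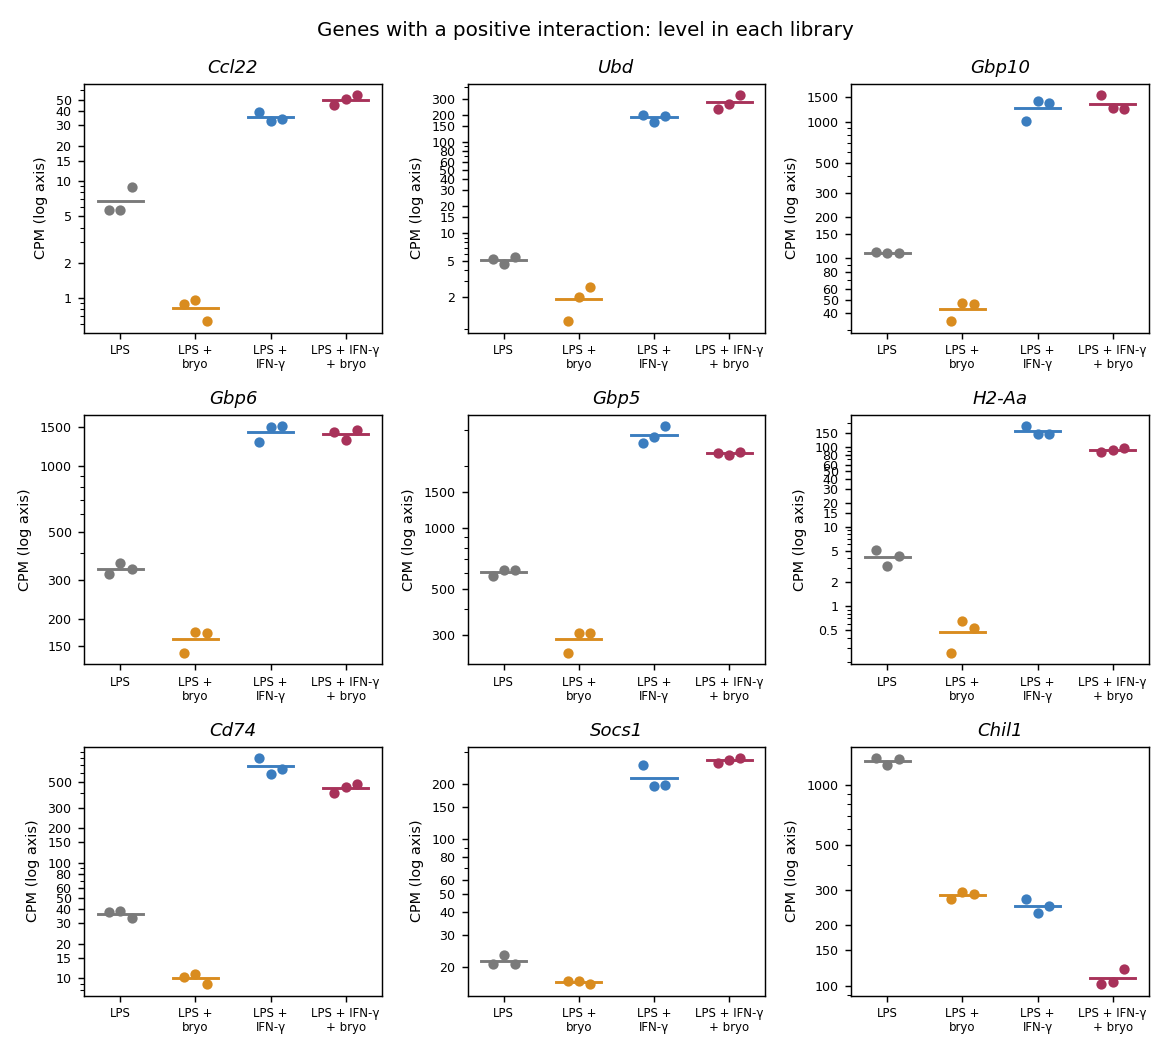
Levels of 9 genes with a positive interaction in the 12 libraries, in CPM on a log axis; each point is 1 library and each bar the mean of 3. In Ccl22, Ubd and Socs1 the bryostatin libraries lie below the control without IFN-gamma and above it with IFN-gamma, whereas in H2-Aa, Cd74 and Chil1 they lie below it in both settings.

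The largest positive interaction was in a chemokine gene. Ccl22 (ENSMUSG00000031779, chr8:94745590-94751699), whose product attracts regulatory and other CCR4-bearing T cells, had 5.61, 5.71 and 8.88 CPM with LPS and 0.879, 0.953 and 0.628 CPM with bryostatin. It had 39.2, 32.4 and 33.9 CPM with IFN-gamma and 44.4, 50.8 and 54.7 CPM with both agents. The groups did not overlap in either setting, and bryostatin stood on the low side without IFN-gamma and on the high side with it. The fold changes were -3.02 (SE 0.24) and 0.51 (SE 0.13), and the interaction was 3.53 (SE 0.28, adjusted p = 1.1e-05). Ccl22 and the neutrophil chemokine gene Cxcl5 were the 2 called members of 21 CC and neutrophil chemokines. Cxcl5 had 170 ± 33.3 and 61.7 ± 20.1 CPM without IFN-gamma, and 54.9 ± 14.3 and 77.1 ± 13.6 CPM with it, where the groups overlapped (interaction 1.95, SE 0.35, adjusted p = 0.034). Of the 3 CXCR3 ligands, which attract activated T cells, Cxcl9 was called. It fell from 56.2 ± 8.43 to 20.3 ± 5.18 CPM without IFN-gamma and had 2993 ± 281 and 2273 ± 212 CPM with it, groups that did not overlap although that difference was not called (interaction 1.07, SE 0.21, adjusted p = 0.034). Cxcl10 had a fall of 0.58 on the log2 scale without IFN-gamma and a change of -0.01 with it, but its interaction was not called (0.56, SE 0.16, adjusted p = 0.16). Without 9 of the 12 libraries in turn, Cxcl9 and Cxcl5 each lost their call.

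Among 25 cytokines and inflammatory enzymes, Il1a and Csf1 were called, both positive. Il1a, an alarmin cytokine gene, had 146, 144 and 159 CPM with LPS and 154, 144 and 164 CPM with bryostatin, groups that overlapped. It had 71.2, 81 and 80.2 CPM with IFN-gamma and 115, 117 and 142 CPM with both, where bryostatin libraries were the higher ones (interaction 0.65, SE 0.12, adjusted p = 0.026). Csf1, a growth factor for microglia, had 671 ± 7.74 and 465 ± 33.9 CPM without IFN-gamma and 1935 ± 123 and 1962 ± 78.7 CPM with it (0.55, SE 0.10, adjusted p = 0.021). Nos2, the inducible nitric oxide synthase, had 81.2 ± 9.48, 61.1 ± 15.2, 859 ± 85 and 1211 ± 29.6 CPM in the 4 groups, and its interaction of 0.91 (SE 0.20) had an adjusted p of 0.06. The interactions of Il1b, Il6 and Tnf were 0.65, 0.54 and 0.26 with adjusted p-values of 0.077, 0.41 and 0.75. The calls of Il1a and Csf1 were lost without 6 and 4 of the 12 libraries in turn. Il18bp, a secreted inhibitor of interleukin 18, went from 84.4 ± 8.47 to 45.7 ± 5.96 CPM without IFN-gamma, and had 150 ± 0.751 and 154 ± 15.1 CPM with it (0.92, SE 0.14, adjusted p = 0.0044). None of 20 NF-kB subunit and feedback genes was called by edgeR, DESeq2 or limma-voom (7 at an unadjusted p under 0.05), although 19 had a positive estimate and bryostatin lowered 13 without IFN-gamma and 0 with it.

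The proteases of the classical complement pathway, C1s1 and C1ra, were among the genes with the smallest p-values. C1s1 (ENSMUSG00000038521, chr6:124530345-124542359) had 203, 205 and 204 CPM with LPS and 76.9, 84.7 and 88.3 CPM with bryostatin. It had 557, 569 and 602 CPM with IFN-gamma and 467, 468 and 472 CPM with both. Bryostatin libraries were lower without overlap in both settings, by 1.29 (SE 0.07) and 0.30 (SE 0.06) on the log2 scale, with an interaction of 0.99 (SE 0.09, adjusted p = 6.6e-05). C1ra fell by 1.14 (SE 0.08) and 0.41 (SE 0.07), with an interaction of 0.73 (SE 0.11, adjusted p = 0.0031). C3, the central complement component, fell by 1.02 and 0.64, and its interaction of 0.38 was not called (SE 0.13, adjusted p = 0.24).

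Genes of the NRF2 oxidative stress response, which protects cells from reactive oxygen, had 3 called members of 25, all positive, and 24 positive estimates. Hmox1 (heme oxygenase 1, chr8:75093621-75100589) had 152, 147 and 146 CPM with LPS and 148, 139 and 141 CPM with bryostatin, which overlapped. It had 2616, 2293 and 2742 CPM with IFN-gamma and 3756, 3574 and 4391 CPM with both, so that bryostatin was the higher group only there (interaction 0.67, SE 0.12, adjusted p = 0.017). Slc7a11, the cystine importer, went from 59.1 ± 5.27 to 32.8 ± 4.55 CPM without IFN-gamma and had 337 ± 93.2 and 454 ± 34.1 CPM with it (1.28, SE 0.24, adjusted p = 0.034). Gclc, a subunit of the first enzyme of glutathione synthesis, had an interaction of 0.50 (SE 0.11, adjusted p = 0.048), a call that was lost without any 1 of the 12 libraries. The calls of Slc7a11 and Hmox1 were lost without 10 and 3 of them in turn, and none of the 25 genes was called in the 15-library fit, where the median was 0.27.

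Several other genes of varied function had positive interactions. Serpina3g, a protease inhibitor with a near-identical relative in Serpina3f, had 12.9 ± 1.84 and 4.99 ± 1.36 CPM without IFN-gamma and 72.5 ± 11.4 and 84.3 ± 3.61 CPM with it (1.59, SE 0.22, adjusted p = 0.0023). Calhm6, an ion channel gene of activated macrophages, went from 8.98 ± 0.493 to 2.82 ± 0.292 CPM and from 298 ± 31.5 to 233 ± 32.9 CPM (1.31, SE 0.18, adjusted p = 0.0022). Chil1, an astrocyte chitinase-like protein named here after its values were seen, was lowered by IFN-gamma as well. It had 1357, 1245 and 1334 CPM with LPS, 269, 293 and 284 CPM with bryostatin, 270, 230 and 249 CPM with IFN-gamma, and 102, 104 and 122 CPM with both, an interaction of 1.02 (SE 0.11, adjusted p = 0.00059). The LPS libraries were the highest and those with both agents the lowest, and those with bryostatin or IFN-gamma singly lay close together. Marco, a scavenger receptor, and Tlr2, a receptor for bacterial lipoproteins, had interactions of 1.01 (SE 0.18) and 0.64 (SE 0.13). Car8, a carbonic anhydrase-related protein, had 8.28 ± 0.935 CPM with LPS and 1.15 ± 0.139, 1.14 ± 0.254 and 0.752 ± 0.287 CPM in the other groups (2.23, SE 0.40), so the 2 agents lowered it to a like level and the value with both rests on few counts. Glul, the glutamine synthetase of astrocytes, had 691 ± 18.4 and 615 ± 45.5 CPM without IFN-gamma and 167 ± 8.6 and 210 ± 12.3 CPM with it (0.50, SE 0.10, adjusted p = 0.034), and was the only called gene of 26 astrocyte identity genes. Insrr, Ms4a4d and Rspo3, at 1.28, 1.28 and 1.13, completed the 15 largest positive interactions among protein-coding genes with at least 5 CPM in some group. The calls of Marco, Tlr2, Car8 and Glul were lost without 4, 9, 3 and 9 of the 12 libraries in turn.

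Among the genes with a negative interaction, the immediate early genes, which growth factor and protein kinase C signals turn on through ERK, had 4 called members of 30, all negative, and the list's median was -0.05. Egr1 (ENSMUSG00000038418, chr18:34859823-34864984) had 22.9, 25 and 19.7 CPM with LPS and 39.4, 45 and 30.9 CPM with bryostatin. It had 30.6, 45.9 and 32.2 CPM with IFN-gamma and 19, 17.9 and 18.2 CPM with both. Bryostatin was the higher group without IFN-gamma and the lower one with it, with no overlap in either setting. The fold changes were 0.77 (SE 0.15) and -0.98 (SE 0.16), and the interaction was -1.75 (SE 0.22, adjusted p = 0.0017). Egr2 had 2.6 ± 0.277, 5.88 ± 1.02, 1.81 ± 0.31 and 1.43 ± 0.114 CPM in the 4 groups, an interaction of -1.51 (SE 0.31, adjusted p = 0.032). Ier2 rose with bryostatin without IFN-gamma, from 14.5 ± 1.32 to 22 ± 2.81 CPM, and had 16.1 ± 1.98 and 12.3 ± 2.06 CPM with it (-0.98, SE 0.19, adjusted p = 0.03). Fos had equal means of 33.4 CPM without IFN-gamma, and fell from 34.9 ± 3.57 to 23 ± 0.965 CPM with it (-0.60, SE 0.12, adjusted p = 0.034). Of these 4, Egr1 alone kept its call without each library in turn, and Egr2, Ier2 and Fos lost theirs without 8, 6 and 9.

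Of 12 heat shock chaperone genes, 2 had a called interaction, both negative. Hspa1a (ENSMUSG00000091971, chr17:34969190-34972156) and Hspa1b (ENSMUSG00000090877, chr17:34956436-34959238) encode near-identical inducible HSP70 proteins, and their 250-base promoter windows differ at 3 bases, so the division of reads between them is uncertain. Hspa1a had 8.31, 7.7 and 8.83 CPM with LPS, 6.15, 6.77 and 5.55 CPM with bryostatin, 38.4, 35.2 and 30.3 CPM with IFN-gamma, and 7.85, 9.57 and 9.2 CPM with both. IFN-gamma without bryostatin gave the high libraries, and with bryostatin added all 3 lay near the LPS level. The fold changes with bryostatin were -0.42 (SE 0.13) without IFN-gamma and -1.96 (SE 0.12) with it, and the interaction was -1.54 (SE 0.18, adjusted p = 0.00066). Hspa1b had means of 8.53 ± 0.348, 7.81 ± 0.189, 46.5 ± 6.37 and 16.6 ± 0.977 CPM in the 4 groups, with an interaction of -1.36 (SE 0.16, adjusted p = 0.00066). The other 10 heat shock chaperones were not called, and Dnajb1, Hsph1 and Bag3, named here after their values were seen, had estimates of -0.11, 0.04 and -0.06.

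**Figure D3:**
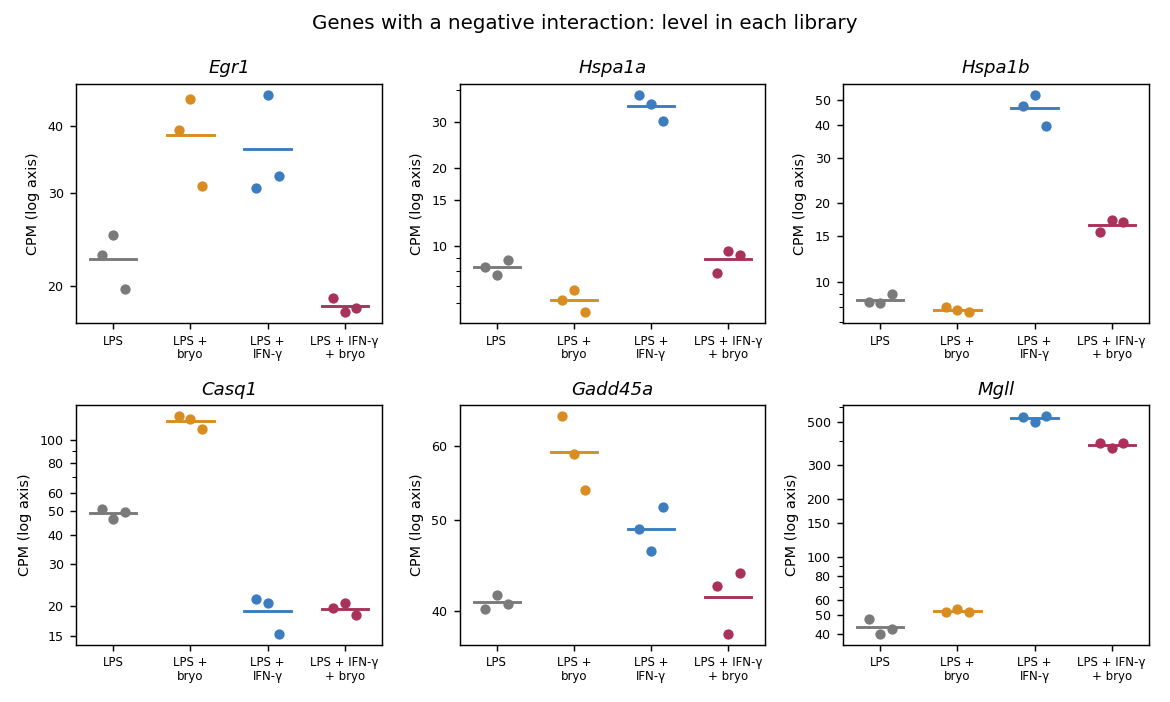
Levels of 6 genes with a negative interaction in the 12 libraries, in CPM on a log axis; each point is 1 library and each bar the mean of 3. Egr1 and Mgll lie higher with bryostatin without IFN-gamma and lower with it, Hspa1a and Hspa1b are high in the libraries with IFN-gamma and no bryostatin, and Casq1 is high in those with bryostatin and no IFN-gamma.

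Casq1 (ENSMUSG00000007122, chr1:172209894-172219868), a calcium store protein, rose with bryostatin in the absence of IFN-gamma only. It had 51.2, 46.5 and 49.8 CPM with LPS, 125, 123 and 111 CPM with bryostatin, 21.5, 20.6 and 15.3 CPM with IFN-gamma, and 19.6, 20.6 and 18.4 CPM with both. The bryostatin libraries were the higher ones without IFN-gamma and overlapped the control with it, and the interaction was -1.25 (SE 0.15, adjusted p = 0.00072). Lpl, a lipase of lipid-handling microglia, went from 57 ± 3.98 to 122 ± 1.39 CPM without IFN-gamma and had 30.6 ± 5.2 and 38.7 ± 1.97 CPM with it (-0.76, SE 0.14, adjusted p = 0.021). Gpnmb, a glycoprotein of the same disease-associated microglial list, had 37.8 ± 3.53 and 54.6 ± 9.44 CPM without IFN-gamma and 206 ± 3.98 and 181 ± 17.5 CPM with it (-0.71, SE 0.15, adjusted p = 0.04). With Csf1, which was positive, these were 3 called of 20 on that list. The growth factor gene Hbegf, a ligand of the EGF receptor, rose from 83 ± 1.3 to 120 ± 8.9 CPM without IFN-gamma and had 135 ± 7.07 and 132 ± 1.85 CPM with it (-0.56, SE 0.10, adjusted p = 0.016). Igfbp3, which binds insulin-like growth factors, rose in both settings, from 761 ± 32.2 to 1673 ± 44.3 CPM and from 1507 ± 68.1 to 2436 ± 78.1 CPM (-0.44, SE 0.09, adjusted p = 0.034). Fancc, a DNA repair gene, rose by 1.54 and 0.59 on the log2 scale, and Irs4, an adaptor of insulin signalling, by 2.08 and 1.03. Without 1 library in turn, the calls of Lpl, Gpnmb, Hbegf and Igfbp3 were lost in 5, 9, 2 and 9 of 12 cases. Stk32b, Ret and Cd180 had interactions of -1.16, -0.91 and -0.81, and bryostatin lowered all 3 with IFN-gamma. Their calls were lost without 11, 10 and 9 of the 12 libraries in turn and with a replicate term, and that of Stk32b also with limma-voom.

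In 12 genes bryostatin had called effects of opposite direction in the 2 settings (0.0765%). Beside Ccl22, Ubd and Socs1, the genes lowered without IFN-gamma and raised with it were Smoc2, a matricellular protein, and Podxl, a sialomucin. Smoc2 had means of 64.8 ± 12.9 and 45.7 ± 6.59 CPM without IFN-gamma and 31.1 ± 5.44 and 56.4 ± 6.59 CPM with it, an interaction of 1.36 (SE 0.22, adjusted p = 0.013), and Podxl had an interaction of 0.77 (SE 0.12, adjusted p = 0.0044). Beside Egr1, those raised without IFN-gamma and lowered with it were Mgll, Il6ra, Eln, Tacr1, Ifitm6 and Rdh10. Mgll, the lipase that breaks down the endocannabinoid 2-arachidonoylglycerol, had 47.8, 39.9 and 42.3 CPM with LPS and 51.8, 53.4 and 51.8 CPM with bryostatin. It had 533, 497 and 535 CPM with IFN-gamma and 390, 366 and 387 CPM with both, so no groups overlapped (interaction -0.72, SE 0.10, adjusted p = 0.0023). Il6ra, the interleukin 6 receptor, had 28.6 ± 1.37 and 37 ± 6.02 CPM without IFN-gamma and 18.8 ± 1.36 and 12.7 ± 1.15 CPM with it (-0.94, SE 0.17, adjusted p = 0.016). Elastin (Eln), the substance P receptor (Tacr1), Ifitm6 and the retinol dehydrogenase Rdh10 had interactions of -1.15, -1.44, -1.27 and -0.59. Their calls were lost without 10, 6, 6 and 4 of the 12 libraries in turn, and that of Eln also with limma-voom (adjusted p = 0.0665). The number of such genes was 5 to 13 with 1 library left out and 2 in the 15-library fit.

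None of 34 type I interferon-stimulated genes was called by edgeR, DESeq2 or limma-voom (median 0.10, 1 at an unadjusted p under 0.05). Of 24 protein kinase C and other C1-domain proteins, the direct targets of bryostatin, edgeR and limma-voom called 0 and DESeq2 1 (median 0.07, 2 at an unadjusted p under 0.05). Among the kinases, Prkca, Prkcb, Prkcd and Prkce had estimates of -0.21, 0.27, 0.39 and 0.03, with adjusted p-values of 0.72, 0.86, 0.082 and 0.99. Of 20 microglial and macrophage lineage markers edgeR and limma-voom called 0 and DESeq2 2 (median 0.16, 5 at an unadjusted p under 0.05), although bryostatin lowered 11 of them without IFN-gamma and 4 with it. Bryostatin lowered 14 of 26 astrocyte identity genes without IFN-gamma and 14 with it, with a median interaction of 0.03. None of 8 endothelial, 36 cell cycle or 30 sterol and fatty acid synthesis genes was called by the 3 tools (2, 1 and 4 at an unadjusted p under 0.05), and of 18 oligodendrocyte genes edgeR and limma-voom called 0 and DESeq2 3 (4 at an unadjusted p under 0.05). Of 12 neuronal markers Tubb3 was called (-0.51, SE 0.11, adjusted p = 0.037). Genes that bryostatin moved in the same direction in both settings included Spp1 (osteopontin), which rose by 1.98 and 1.58, and Aqp4, the water channel of astrocytes, which fell by 0.79 and 1.26, with interactions of -0.40 and -0.47 that were not called (adjusted p = 0.24 and 0.15). The heat shock chaperones, with 2 of 12 called as given above, were also listed as a check of RNA quality. In the other lists of that kind, the 13 mitochondrially encoded genes had a median interaction of -0.28 and the 24 ribosomal protein genes 0.06. None of either was called by the 3 tools (4 and 0 at an unadjusted p under 0.05).

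**Figure D4:**
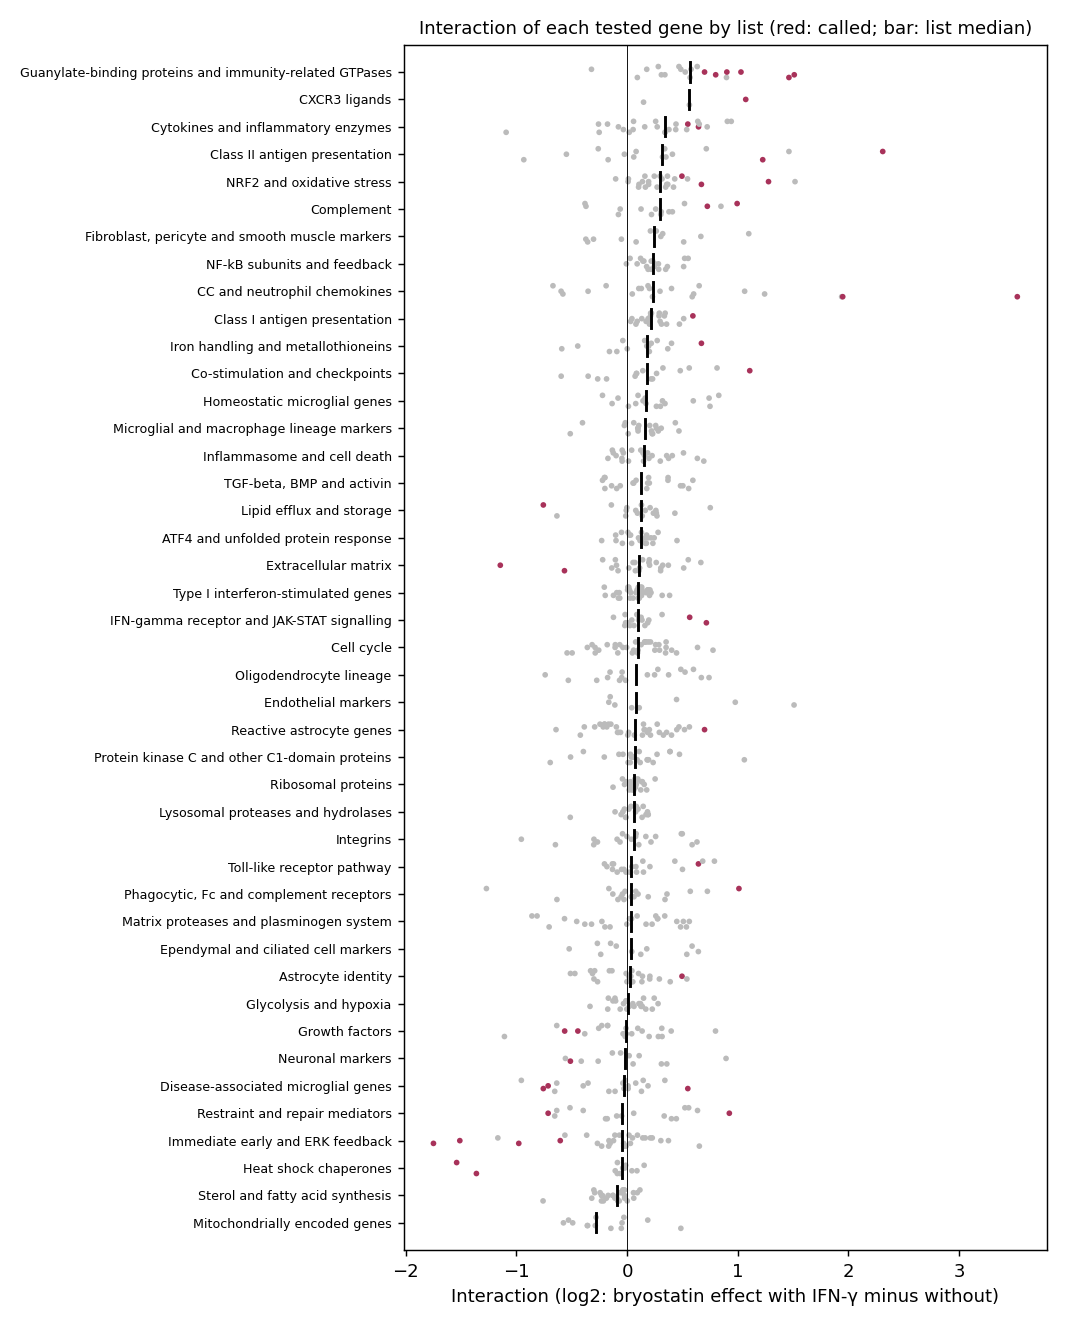
Interaction estimates (log2, x axis) of the genes of each list with 3 or more tested genes; each point is 1 gene, red where called, and the bar is the median. The guanylate-binding proteins and the 3 CXCR3 ligands have the highest medians, 0.57 and 0.56, and the red points of the immediate early and heat shock lists lie below 0.

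Genes were also grouped by their own response to IFN-gamma, which changed 8932 genes on average over the settings with and without bryostatin (56.9%; 27.7% raised, 29.2% lowered). Of the 905 genes it raised over 2-fold, 36 had a called interaction (3.98%), 32 positive and 4 negative, with a median estimate of 0.157. Of the 1090 it lowered over 2-fold, 19 were called (1.74%), 6 positive and 13 negative. The shares were 0.505% of 6937 genes changed by less than 2-fold and 0.325% of 6761 genes whose average change was not called. The differences between these shares were not tested. A like split was made of genes lowered by bryostatin on average (9.95% of all genes, with 8.84% raised and 18.8% changed in either direction). Of all 1561 such genes, 996 (63.8%) were lowered more without IFN-gamma, and of 377 whose average change with IFN-gamma was not called, 254 (67.4%). Of 166 that IFN-gamma raised over 2-fold, 143 (86.1%) were lowered more without IFN-gamma, with medians of -0.598 without it and -0.266 with it. Of 240 that IFN-gamma lowered over 2-fold, 108 (45%) were lowered more without IFN-gamma, with medians of -0.661 and -0.713. Among the 1388 genes that bryostatin raised on average, 771 (55.5%) had the larger change without IFN-gamma, with medians of 0.36 and 0.337. For the 109 of them that IFN-gamma raised over 2-fold, the number was 66 (60.6%), with medians of 0.529 and 0.449.

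For some genes whose level IFN-gamma raised, a smaller fold change did not mean a smaller change in CPM. On the CPM scale, 14 of the 112 genes had a difference of differences of the opposite sign to their log2 interaction, 10 of them positive and 4 negative on the log2 scale. The other 98, of which 61 were positive and 37 negative, kept their sign. Cd74 fell by 26.1 CPM with bryostatin without IFN-gamma and by 237 CPM with it, although its log2 interaction was positive. H2-Aa fell by 3.69 and 66.5 CPM, and Gbp5 differed by -323 and -521 CPM. Cxcl9 differed by -35.9 CPM without IFN-gamma and by -720 CPM with it. The called interactions of these genes are therefore statements about ratios.

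**Figure D5:**
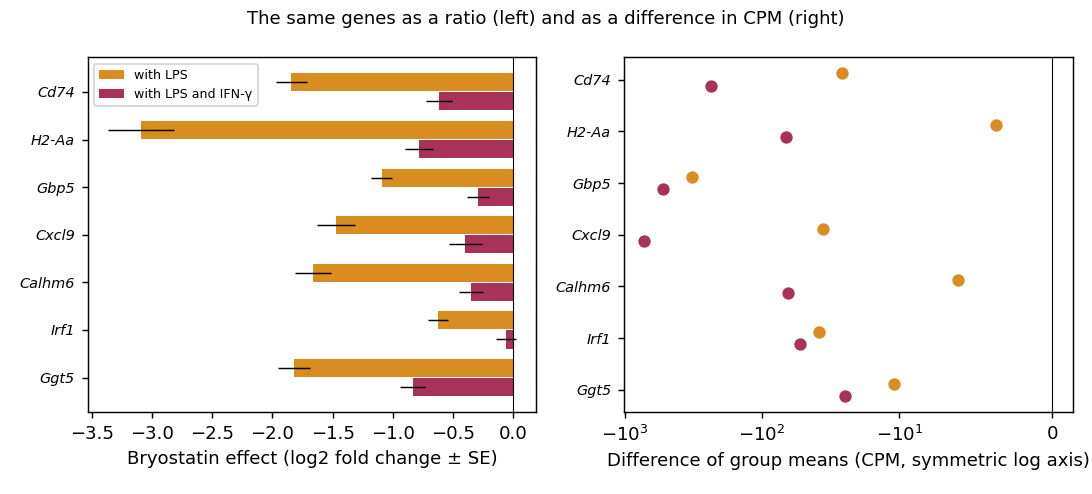
Bryostatin's effect on 7 genes without and with IFN-gamma, as log2 fold change with its SE (left, bars) and as the difference in mean CPM on a symmetric log axis (right, points). For Cd74, H2-Aa and Cxcl9 the effect with IFN-gamma is the smaller one on the left and the larger one on the right.

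Bryostatin was also given without LPS or IFN-gamma in the study's second experiment, where 97 of the 112 genes were tested and 17 were called (565 of 15604 genes, 3.62%). Of these 17, 13 had the sign of bryostatin's effect under LPS and 12 its sign under LPS with IFN-gamma. In that experiment replicate 1 of the untreated group had 39.9 CPM of Sox10 where the other 11 libraries had at most 0.49 CPM, and without it 14 genes were called of 98 tested (2.7% of all genes), 11 and 9 with those signs. Egr1 fell by 0.94 there (adjusted p = 0.0391, or 0.0814 without that library) and Fos by 0.96 (adjusted p = 0.00285, or 0.00437 without it). Mgll fell by 0.73 (adjusted p = 0.00962, or 0.0107 without it). These 3 genes thus had the direction seen under LPS with IFN-gamma, and for Egr1 and Mgll it was opposite to that under LPS. Among called genes that went the other way were Gpnmb, Glul and Rdh10, with the sign seen under LPS and not that with IFN-gamma. Without untreated replicate 1, the adjusted p of Glul went from 0.0303 to 0.0496, and Rdh10 lost its call (0.0358 to 0.0578). Sox10 had group means of 7.94 to 32.3 CPM in the 12 libraries used here. An effect of LPS therefore cannot be told apart from a difference between the cultures of the 2 experiments. Gpnmb rose by 1.53 (adjusted p = 0.00276), C1s1 fell by 0.91 (adjusted p = 0.00172) and Gbp5 fell by 1.47 (adjusted p = 0.0336, or 0.0524 without that library). Hspa1a and Hspa1b had changes of -0.11 and 0.11 that were not called (adjusted p = 0.781 and 0.718).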

How the data were processed

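Gene counts of unstranded, poly(A)-selected libraries were deposited by the authors as raw read counts per gene; per the submitters' processing notes, fastp, STAR, featureCounts and the mm10 genome were used, whose versions are not given in the sources used here. Because strand was not kept, reads of a gene and of an overlapping antisense gene cannot be told apart. The 12 libraries were fitted together with edgeR 4.0.16 (R 4.3.3; filterByExpr, TMM scaling, robust quasi-likelihood F-test), with 1 coefficient per group and contrasts for the interaction, the 4 pairwise effects and the average effects. The threshold was an adjusted p of 0.05, and SEs were the log2 fold change divided by the square root of F. The script was tested on simulated data. The genes not tested (38839) had too few counts. Totals of 17230058 to 20002626 counts make 3 counts worth 0.15 to 0.174 CPM. Genes were named by rule: the 15 largest called protein-coding interactions per direction with at least 5 CPM in the highest group, up to 4 called members per list (or the 2 most abundant), 35 fixed genes, genes with opposite effects (up to 8 per direction) and cell type markers; others are marked. The members and lists were chosen with earlier results of these data known. The 44 gene lists are described by counts and medians, with no test. Alternatives were DESeq2 1.42.0, limma 3.58.1 (voom), other scalings and filters, the 15 libraries of experiment 1, a replicate term and leaving out each library. Some values are not reported here. Promoters came from RefSeq (GRCm38.p6), matched by symbol for 11587 genes.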

Additional observations from a re-analysis of the deposited data

Results flagged for a closer look

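The effect of bryostatin differed between the settings with and without IFN-gamma, by the test of the difference itself, for 112 genes. In 12 of them the effects were called in both settings and opposite. The interactions of the 5 that were lowered by bryostatin without IFN-gamma and raised with it were 3.53 for Ccl22, 1.99 for Ubd, 1.36 for Smoc2, 0.77 for Podxl and 0.72 for Socs1. The interactions of the 7 that were raised without IFN-gamma and lowered with it were -1.75 for Egr1, -1.44 for Tacr1, -1.27 for Ifitm6, -1.15 for Eln, -0.94 for Il6ra, -0.72 for Mgll and -0.59 for Rdh10. The interaction calls of Socs1, Eln, Tacr1, Ifitm6 and Rdh10 were each lost without 4 or more of the 12 libraries in turn.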

How the results depend on the processing

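The number of called interactions (112, with 71 positive and 41 negative) moved by over 1.5 times under several settings. It was 264 (170 and 94) with DESeq2, 356 (245 and 111) with no filter on low counts, and 19 (11 and 8) with the 15 libraries of experiment 1. Without 1 library at a time it was 33 to 156, with 24 to 85 positive and 8 to 71 negative. Without the 3 libraries at the low end of the third component, a setting chosen after seeing the data, it was 278 (132 and 146). Bryostatin called 1108 genes without IFN-gamma and 543 with it in the 15-library fit. Opposite effects numbered 28 with no filter, 2 in the 15-library fit and 5 to 13 without 1 library at a time. The cause of these differences was not tested. No other setting moved the total by over 1.5 times. With a replicate block, 79 genes were called, 22 of them negative. Deviations from the group mean were also correlated between libraries of different groups. In 18 same-numbered pairs, r ran from -0.308 to 0.333 and 3 were over 0.1, and the largest r between other numbers was 0.316. The mean r was highest with libraries of the same number for 7 of 12 libraries. Whether the replicate numbers pair the libraries is not settled by these values. Of the 112 calls, 111 were kept by DESeq2, 107 with its size factors, 97 with library totals, 102 by limma-voom and 70 with the block. Values of single named genes stayed on the same side of the threshold in 1528 cases, lost a call in 333, gained one in 28 and reversed in 0. Low counts limit genes such as H2-Aa, Il12rb1 and Car8, whose lowest group means were near or under 1 CPM.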
